A study of Mus musculus with 9 samples.

Results

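The 10 genes described here belong to the insulin-like growth factor (IGF) system of mouse kidney cells. They are the binding protein genes Igfbp2, Igfbp3, Igfbp4, Igfbp5, Igfbp6 and Igfbp7, the ligand genes Igf1 and Igf2, and the receptor genes Igf1r and Igf2r. They were chosen by gene name, as all rows of the deposited tables with one of these names, which gave 10 of 55487 genes. No level or fold change enters that rule, but the list was drawn up with earlier results from the same libraries known. Their levels and changes are therefore given as a description, with no test of the group and no p-value for a member.

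IGF ligands act mainly through the receptor tyrosine kinase IGF1R, which signals through insulin receptor substrates, PI3K and AKT to the FOXO transcription factors. IGF2R carries no kinase and takes IGF2, together with enzymes tagged by mannose 6-phosphate, to lysosomes. The IGF-binding proteins are secreted carriers that hold the ligands away from, or deliver them to, the receptors, and proteases such as PAPP-A release the ligand by cutting them. IGFBP7 is the outlier of the family, because it binds IGFs weakly. In the clinic, IGFBP7 is measured in urine as a marker of tubular stress.

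All libraries came from PT-22 cells, a mouse proximal tubule line with the genotype Pax2-/-, Pax8 fl/fl, Rosa-CreERT2, labelled as carrying Pax8-pTRIPZ, a doxycycline-inducible vector. There were 3 groups of 3 libraries, replicates A, B and C. Day 0 cells were untreated, day 6 cells had received 4-hydroxytamoxifen at 1 uM, which activates the Cre recombinase, and day 12 cells had then received doxycycline at 1 ug/ml. All cells shared the genotype and the vector, and the Cre, driven from the Rosa locus, is not restricted to a cell type. The labels give 2 days of 4-hydroxytamoxifen in 1 place and 6 days in another, and do not say whether replicates were separate cultures, so p-values measure only the spread between these libraries. No vehicle-treated cells, untreated cells of a later day or doxycycline-free cells of day 12 were analysed here, so drug, time in culture and PAX8 cannot be told apart.

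Libraries held 56397100 to 86765292 counts, and 21213 to 22139 genes had at least 1 count. The targeted gene Pax8 was not lower at day 6: it stood at 291 ± 1.7 CPM (read counts scaled to library size) in day 0 cells, 405 ± 5.9 in day 6 cells and 496 ± 7.8 in day 12 cells (SD, n = 3 each). Pax2, given as -/- in the genotype, also had counts, with 31.9 ± 2.4 CPM in day 0 cells, 46.9 ± 3.2 in day 6 cells and 52.3 ± 3.2 in day 12 cells. A whole-gene count cannot show the loss of an exon, so the groups are called by their day. Of 10 proximal tubule markers, 5 (Slc34a1, Slc5a2, Slc22a6, Slc27a2 and Hnf4a) lay under 0.1 TPM (a level corrected for transcript length) at every day. The summed level of the list was 601 to 628 TPM at day 0, 283 to 300 TPM at day 6 and 483 to 537 TPM at day 12, but its members did not share that course. Cdh16 averaged 468 TPM at day 0, 71.1 at day 6 and 232 at day 12, Aqp1 averaged 65.2, 184 and 216 TPM, and Lrp2 averaged 33.3, 5.20 and 7.41 TPM. Mitochondrial genes took 6.66% to 7.18% of counts at day 0 and day 6 and 2.10% to 3.96% at day 12, with replicate B the highest of that day.

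The promoters of the 4 genes that the account turns on are shown first, from RefSeq on GRCm38.p6, 250 bases before to 50 after the annotated start, 5′ to 3′ on the gene's strand. They are those of Igfbp4, Igfbp2 and Igfbp7, which were higher after day 0, and of Igfbp5, which was lower. Capitals mark matches to the motifs searched on both strands: TATAAA (the TATA box), GGGCGG (the GC box), GTCACGC (the core of the paired-domain motif of PAX2, PAX5 and PAX8) and TGANTCA (the AP-1 motif, which reads the same on both strands apart from N).
Igfbp4, chr11:99040994-99041293, plus strand: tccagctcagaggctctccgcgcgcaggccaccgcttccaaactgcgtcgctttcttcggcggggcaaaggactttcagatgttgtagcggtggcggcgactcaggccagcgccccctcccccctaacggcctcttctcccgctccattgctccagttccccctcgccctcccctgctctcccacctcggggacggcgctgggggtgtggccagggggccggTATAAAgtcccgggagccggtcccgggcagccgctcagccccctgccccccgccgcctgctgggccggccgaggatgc
Igfbp2, chr1:72824230-72824529, plus strand: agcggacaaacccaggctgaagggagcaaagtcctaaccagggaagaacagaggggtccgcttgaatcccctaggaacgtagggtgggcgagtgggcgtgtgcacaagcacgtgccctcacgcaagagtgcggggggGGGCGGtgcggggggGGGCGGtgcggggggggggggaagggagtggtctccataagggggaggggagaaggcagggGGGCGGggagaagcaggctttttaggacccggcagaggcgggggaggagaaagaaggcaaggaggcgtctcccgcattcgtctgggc
Igfbp7, chr5:77407996-77408295, minus strand: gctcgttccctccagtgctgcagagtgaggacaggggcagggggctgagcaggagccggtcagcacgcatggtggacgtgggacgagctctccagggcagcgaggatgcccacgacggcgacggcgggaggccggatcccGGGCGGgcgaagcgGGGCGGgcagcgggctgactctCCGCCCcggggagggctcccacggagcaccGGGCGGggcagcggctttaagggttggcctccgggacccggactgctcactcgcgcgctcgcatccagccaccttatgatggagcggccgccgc
Igfbp5, chr1:72874816-72875115, minus strand: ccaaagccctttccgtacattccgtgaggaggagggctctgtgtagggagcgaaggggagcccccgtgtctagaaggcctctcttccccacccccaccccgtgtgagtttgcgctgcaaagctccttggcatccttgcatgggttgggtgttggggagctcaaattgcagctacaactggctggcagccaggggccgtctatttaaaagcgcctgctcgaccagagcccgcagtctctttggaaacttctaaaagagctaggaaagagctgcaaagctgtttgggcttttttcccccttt

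The Igfbp4 window held 1 TATAAA, starting 28 bases before the start, a motif found in 13.6% of 32851 RefSeq promoters of this length. GGGCGG, present in 35.7% of all promoters, matched 3 times in the Igfbp2 window and 4 times in that of Igfbp7. These windows held 27 CpG dinucleotides for Igfbp4, 18 for Igfbp2 and 33 for Igfbp7, beside a median of 7 over all promoters. Of all promoters, 84.5% had fewer than Igfbp4, 70.3% fewer than Igfbp2 and 91.4% fewer than Igfbp7. The Igfbp5 window had 10 CpG and none of the 4 motifs. Among the other members, Igfbp6, also higher at day 6, had 8 CpG, and Igf1r, which was level, had 48. Igf2r had 34, Igfbp3, hardly detected, had 37, Igf1 had 6, and the Igf2 windows had 2 to 24. GGGCGG also matched in windows of Igf1r, Igf2r and Igf2, and TATAAA also in that of Igfbp6. GTCACGC, found in 2.09% of promoters, matched in no window of the 10 genes, and TGANTCA, found in 7.81%, matched in a second Igfbp2 window and in that of Igf1. A match describes these letters only and is not a measured binding site.

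Igfbp4 had the widest range of the family across the 3 days. IGFBP4 is a soluble carrier known for holding IGFs away from their receptor until PAPP-A cuts it. The gene (ENSMUSG00000017493, GRCm38 chromosome 11, 99041244 to 99054392, plus strand) had 9, 11 and 10 counts in the day 0 libraries, 763, 949 and 679 at day 6, and 1322, 1237 and 927 at day 12. Scaled to library size by the trimmed mean of M-values (TMM), that was 0.108, 0.176 and 0.144 CPM at day 0, 11.3, 12.8 and 11.7 CPM at day 6, and 17.1, 16.6 and 15.4 CPM at day 12. The groups did not overlap at any step. On this scale the fold change was 84.6 for day 6 against day 0 (log2 6.40 ± 0.13, SE) and 116 for day 12 against day 0 (log2 6.86 ± 0.13), whereas day 12 lay only 0.46 ± 0.066 above day 6. On log2(TPM + 0.1) the change of day 6 against day 0 was 4.82, from means of 7.91 TPM at day 6 and 0.203 TPM at day 0. Both folds against day 0 rest on 30 counts over all day 0 libraries. The difference of day 12 from day 6 was 0.61 and not called on log2(TPM + 0.1).

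**Figure D1:**
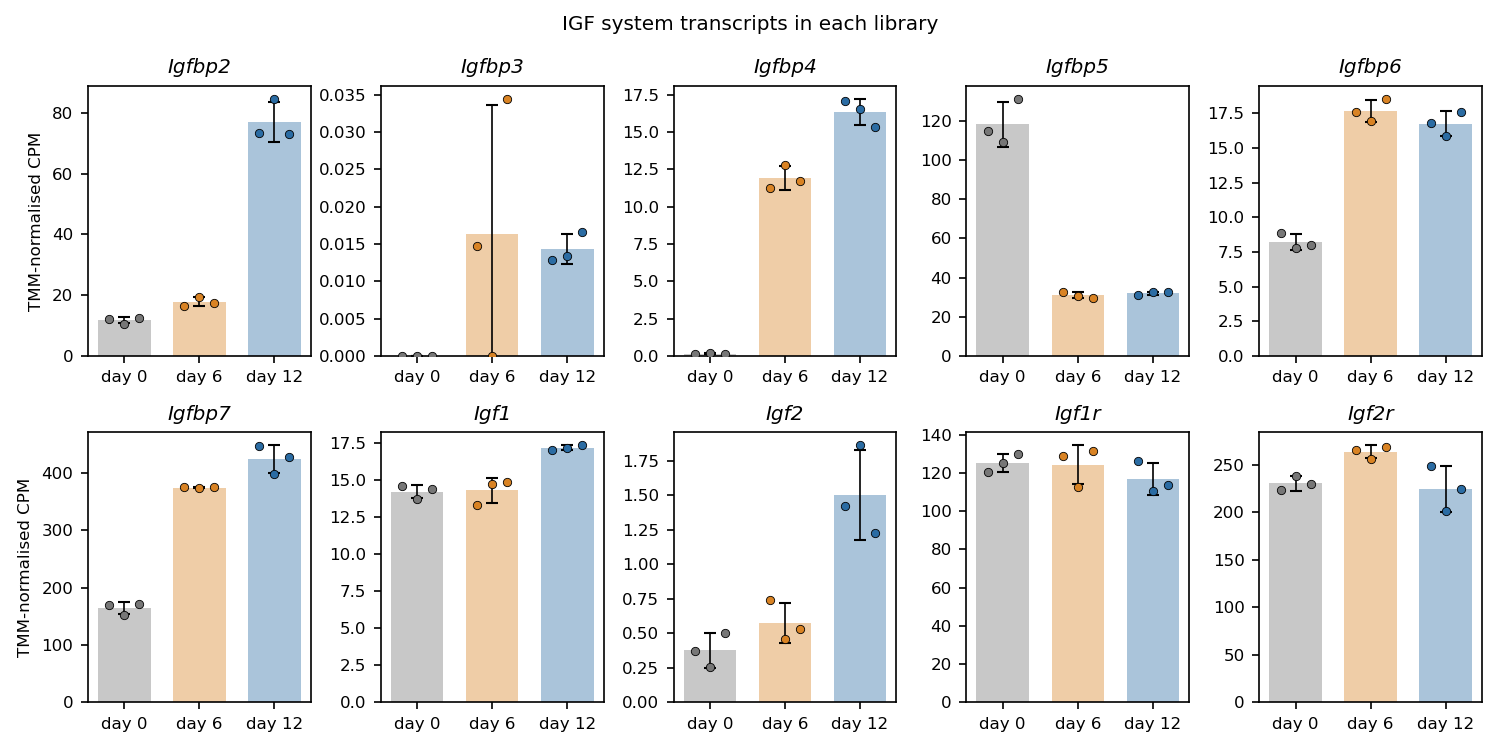
TMM-normalised CPM of each of the 10 genes (vertical axes, each from 0) in the libraries of day 0, day 6 and day 12; points are libraries, bars are means and error bars are SD of 3 libraries. Igfbp4 is close to 0 at day 0 alone, Igfbp2 stands high at day 12 alone, Igfbp5 is high at day 0 alone, and Igf1r lies between 110 and 131 CPM in all 9 libraries.

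Igfbp2 was raised mainly in the second interval. IGFBP2 is a secreted carrier that binds IGFs and, through an RGD sequence, integrins. Its gene (ENSMUSG00000039323, chromosome 1, 72824503 to 72852474, plus strand) stood at 12.2, 10.7 and 12.6 CPM at day 0, 16.5, 19.5 and 17.6 CPM at day 6, and 73.4, 84.6 and 73.0 CPM at day 12. Every library of a later day lay above every library of an earlier one. The log2 fold change was 0.59 ± 0.080 for day 6 against day 0 and 2.11 ± 0.071 for day 12 against day 6.

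Igfbp7 was the most abundant member per length (TPM) at every day. In CPM, which takes no account of length, its gene (ENSMUSG00000036256, chromosome 5, 77349240 to 77408041, minus strand) stood at 170, 153 and 171 CPM at day 0, 374, 374 and 375 CPM at day 6, and 446, 398 and 427 CPM at day 12. Day 6 libraries differed from one another by less than 2 CPM, and the groups did not overlap. It was higher by 1.19 ± 0.046 on the log2 scale at day 6 against day 0, and by 0.18 ± 0.045 at day 12 against day 6. Of its exon bases, 85 (7.03%) are shared with Polr2b on the other strand, and the strand setting of the counting was not given.

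Igfbp6, whose protein prefers IGF2 as its ligand, took a single step. The gene (ENSMUSG00000023046, chromosome 15, 102144362 to 102149511, plus strand) had 8.90, 7.78 and 8.02 CPM at day 0, 17.6, 17.0 and 18.6 CPM at day 6, and 16.8, 15.8 and 17.6 CPM at day 12. Day 6 lay 1.10 ± 0.063 (log2) above day 0 with no overlap, while day 12 and day 6 overlapped and differed by −0.08 ± 0.060, which was not called.

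Igfbp5 was the member called lower at day 6 against day 0. IGFBP5 binds IGFs, extracellular matrix and hydroxyapatite and is the most conserved of the carriers. Its gene (ENSMUSG00000026185, chromosome 1, 72857932 to 72874884, minus strand) had 115, 109 and 131 CPM at day 0, 32.7, 30.7 and 29.5 CPM at day 6, and 31.1, 32.5 and 32.4 CPM at day 12. Day 6 was 3.82-fold below day 0 (log2 −1.93 ± 0.059). The day 12 libraries lay among those of day 6 (0.05 ± 0.062), although on log2(TPM + 1) they were called higher, by 0.24. Igfbp5 and Igfbp2 lie tail to tail on chromosome 1 with 5458 bases between them, and moved in opposite directions between day 6 and day 0.

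Igfbp3, the main IGF carrier of serum, was hardly detected. The gene (ENSMUSG00000020427, chromosome 11, 7206086 to 7213923, minus strand) had 0 counts in each day 0 library, 1, 0 and 2 at day 6, and 1 in each of day 12. That is no more than the 3 counts which a count of 0 allows in any library, or 0.0358 to 0.0516 TMM-normalised CPM, counting error only. It did not pass the filter on low counts and no fold is given.

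Among the ligands, Igf1 changed little in CPM and Igf2 stayed low. Igf1 (ENSMUSG00000020053, chromosome 10, 87858265 to 87937042, plus strand) had 14.6, 13.7 and 14.4 CPM at day 0, 13.3, 14.7 and 14.9 CPM at day 6, and 17.0, 17.2 and 17.3 CPM at day 12. Day 12 libraries stood above all others, by 0.27 ± 0.052 (log2) against day 6, whereas day 6 and day 0 overlapped (0.01 ± 0.053, not called). On log2(TPM + 1) the Igf1 difference of day 12 from day 6 was 0.56 and called, where all genes tested had a median of 0.16. Igf2 (ENSMUSG00000048583, chromosome 7, 142650766 to 142666816, minus strand), the imprinted fetal growth factor gene, had 31, 16 and 35 counts at day 0, 50, 34 and 31 at day 6, and 110, 139 and 74 at day 12. Its libraries overlapped between day 6 and day 0 (0.60 ± 0.29, not called, but 0.85 and called without day 0 replicate C, and 0.94 and called on log2(TPM + 0.1)), and day 12 lay above both earlier days, by 1.39 ± 0.25 against day 6. The Igf2 values are uncertain, because 62.8% of its exon bases belong also to the model Gm49394 on the same strand, which has 0 counts in every library.

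Of the receptors, Igf1r was level. It (ENSMUSG00000005533, chromosome 7, 67952827 to 68233668, plus strand) had 120, 125 and 130 CPM at day 0, 129, 113 and 131 CPM at day 6, and 126, 110 and 113 CPM at day 12. All 3 groups overlapped, and the log2 differences were −0.01 ± 0.056 for day 6 against day 0, −0.09 ± 0.057 for day 12 against day 6 and −0.10 ± 0.056 for day 12 against day 0, none of them called. A lower level at day 12 was called against day 6 without day 6 replicate B (−0.15) or day 12 replicate A (−0.15), and against day 0 without either of these (−0.11 and −0.16), with DESeq2 (−0.13) or with no filter (−0.10).

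Igf2r (ENSMUSG00000023830, chromosome 17, 12682406 to 12769664, minus strand) had 223, 238 and 230 CPM at day 0, 266, 256 and 269 CPM at day 6, and 249, 201 and 224 CPM at day 12. Day 6 lay above both other days in every library. It was higher by 0.19 ± 0.056 (log2) at day 6 against day 0 and lower at day 12 against day 6 (−0.23 ± 0.056), a call lost on log2(TPM + 1), at −0.02. Day 12 against day 0 differed by −0.04 ± 0.056, not called, but by 0.22 and called on log2(TPM + 1), and by −0.12 and called without day 12 replicate A. Airn, the antisense RNA that silences the paternal Igf2r copy in mouse, was low, with 0.350 ± 0.076 CPM in day 0 cells, 1.01 ± 0.30 in day 6 cells and 0.653 ± 0.021 in day 12 cells, and shares 0 exon bases with Igf2r.

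Calls were read from 1 fit across all 16353 genes that passed the filter on low counts, at an adjusted p under 0.05. Of the 10 members, 9 passed. Between day 6 and day 0, 5 were higher (Igfbp2, Igfbp4, Igfbp6, Igfbp7 and Igf2r), 1 lower (Igfbp5) and 3 not called; of all genes tested, 64.9% were called, 33.5% higher and 31.4% lower. Between day 12 and day 6, 5 were higher (Igfbp2, Igfbp4, Igfbp7, Igf1 and Igf2), 1 lower (Igf2r) and 3 not called, beside 45.3% of all genes, 22.6% higher and 22.7% lower. Between day 12 and day 0, 6 were higher (Igfbp2, Igfbp4, Igfbp6, Igfbp7, Igf1 and Igf2), 1 lower (Igfbp5) and 2 not called, beside 66.4% of all genes, 34.7% higher and 31.7% lower. Each pair of these comparisons shares the libraries of 1 day, and nothing about the group is read from these counts. The median log2 fold change of the 9 members was 0.59, 0.18 and 1.02 in these comparisons in turn, and that of all genes tested was 0.02, 0.01 and 0.03. With limma on log2(TPM + 1), which changes both the measure and the test, 90.1% of all calls between day 12 and day 6 were higher, beside 49.97% in the fit of counts and 60.5% with upper-quartile factors, and all genes tested had a median of 0.16. Between day 12 and day 0 the share was 81.3%, beside 52.3% in the fit of counts, with a median of 0.19. For members, the fold change of day 12 against day 6 on log2(TPM + 1) was 0.38 for Igfbp7, 0.56 for Igf1 and 0.40 for Igf2, beside 0.18, 0.27 and 1.39 in the fit of counts, and that scale shrinks the changes of low genes such as Igf2.

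**Figure D2:**
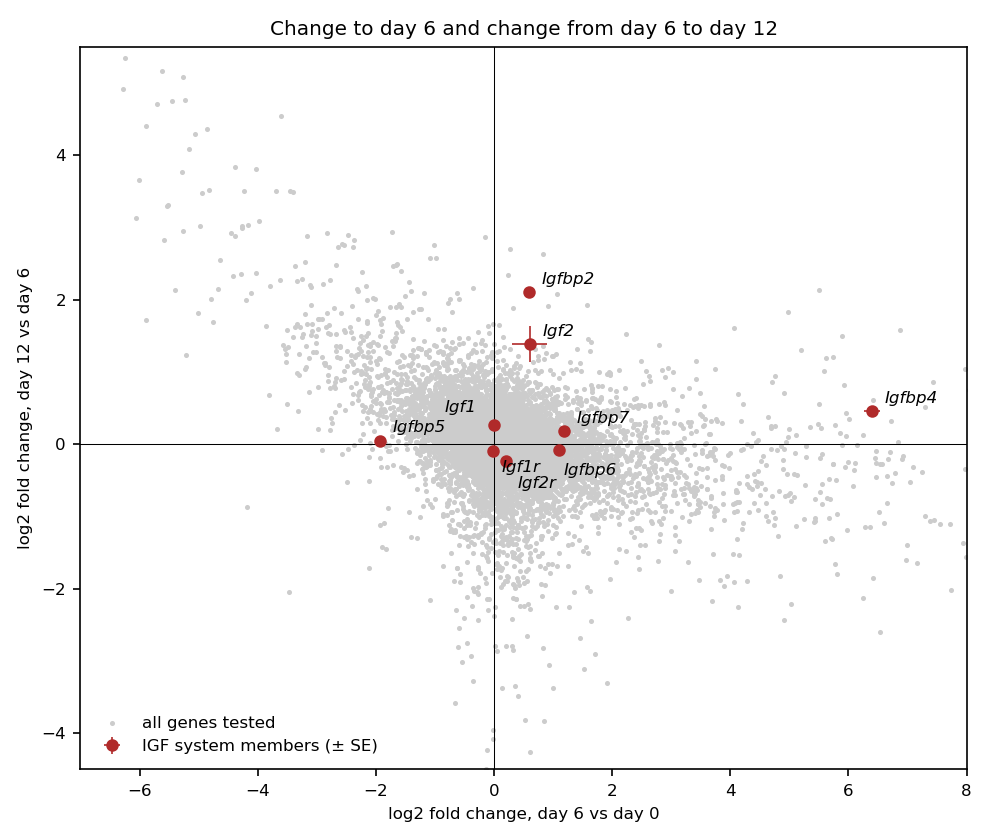
Log2 fold change of day 12 against day 6 (vertical) against that of day 6 against day 0 (horizontal) for all genes tested (grey) and the 9 members that passed the filter (red, ± SE); 40 genes lie outside the axes. Igfbp4 lies far right at 6.40, Igfbp2 highest of the members at 2.11, and Igfbp5 far left at −1.93; the axes share the day 6 libraries.

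Per length, the order of the members changed between days. TPM, the authors' own values, allow genes to be compared within a day. At day 0 Igfbp7 led with 254 ± 13 TPM (SD, n = 3), followed by Igf2r with 34.7 and Igfbp5 with 26.7. Igf1r (15.1), Igfbp2 (15.0) and Igfbp6 (12.8) came next, and of these Igfbp2 overlapped with both others. Igf1 followed with 5.65 TPM, and Igfbp4 (0.203) and Igf2 (0.160) overlapped near the bottom. At day 6 Igfbp7 reached 591 ± 0.96 TPM, and Igf2r (41.1), Igfbp6 (28.1), Igfbp2 (23.0) and Igf1r (16.1) did not overlap, while Igfbp4 (7.91) and Igfbp5 (7.23) did; Igf1 (5.82) and Igf2 (0.417) were lower. At day 12 Igfbp7 stood at 773 ± 62 TPM and Igfbp2, at 115 ± 6.6, was second, ahead of Igf2r (40.8), Igfbp6 (30.7), Igf1r (16.9), Igfbp4 (12.1), Igf1 (9.01) and Igfbp5 (8.69), the last 2 of which overlapped, and Igf2 (0.857). Igfbp2 thus stood at the 70.6th percentile of genes above 0 TPM at day 0, the 76.9th at day 6 and the 94.6th at day 12. Igfbp4 stood at the 35.0th, the 62.8th and the 65.7th, and Igfbp5 at the 79.0th, the 61.8th and the 61.9th.

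**Figure D3:**
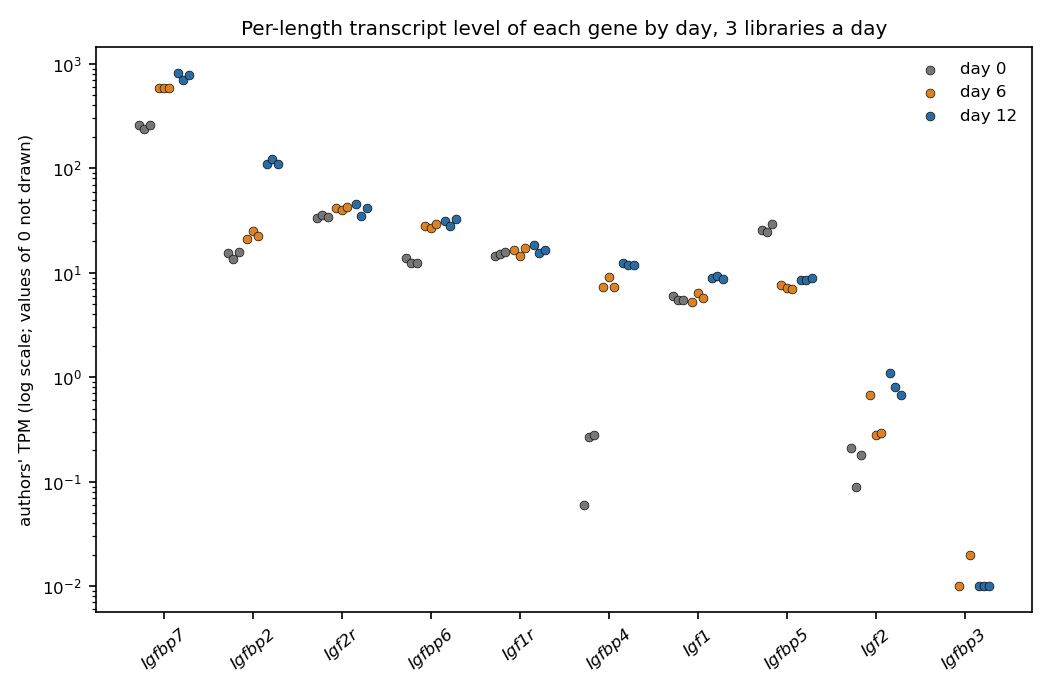
TPM of each gene (log scale) in the libraries of day 0 (grey), day 6 (orange) and day 12 (blue), 3 points a day, with genes ordered by their day 12 mean and values of 0 not drawn. Igfbp7 is on top throughout, Igfbp2 passes Igf2r only at day 12, and Igfbp4 lies under 0.3 TPM at day 0 only.

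The summed TPM of the 6 binding protein genes came to 309 ± 16 in day 0 cells, 657 ± 2.0 in day 6 cells and 939 ± 58 in day 12 cells. The size of these steps depends on the scale. At day 12 against day 6, all genes tested had a median of 0.16 on log2(TPM + 1), and 0.01 in the fit of counts. In that comparison Igfbp7 was higher by 0.38 on log2(TPM + 1), and by 0.18 in the fit of counts. Most of it was Igfbp7, with 82.3% ± 0.33, 89.9% ± 0.29 and 82.2% ± 1.6 at the 3 days. Igfbp5 held 8.63% ± 0.51 at day 0, 1.10% ± 0.060 at day 6 and 0.927% ± 0.051 at day 12, whereas Igfbp2 held 4.85% ± 0.15, 3.50% ± 0.29 and 12.3% ± 1.5. The ratio of Igfbp5 to Igfbp2 TPM was 1.78 ± 0.11 in day 0 cells, 0.316 ± 0.039 in day 6 cells and 0.0758 ± 0.0056 in day 12 cells. The ratio of Igf2r to Igf1r, by contrast, lay at 2.31 ± 0.10, 2.56 ± 0.15 and 2.42 ± 0.12.

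**Figure D4:**
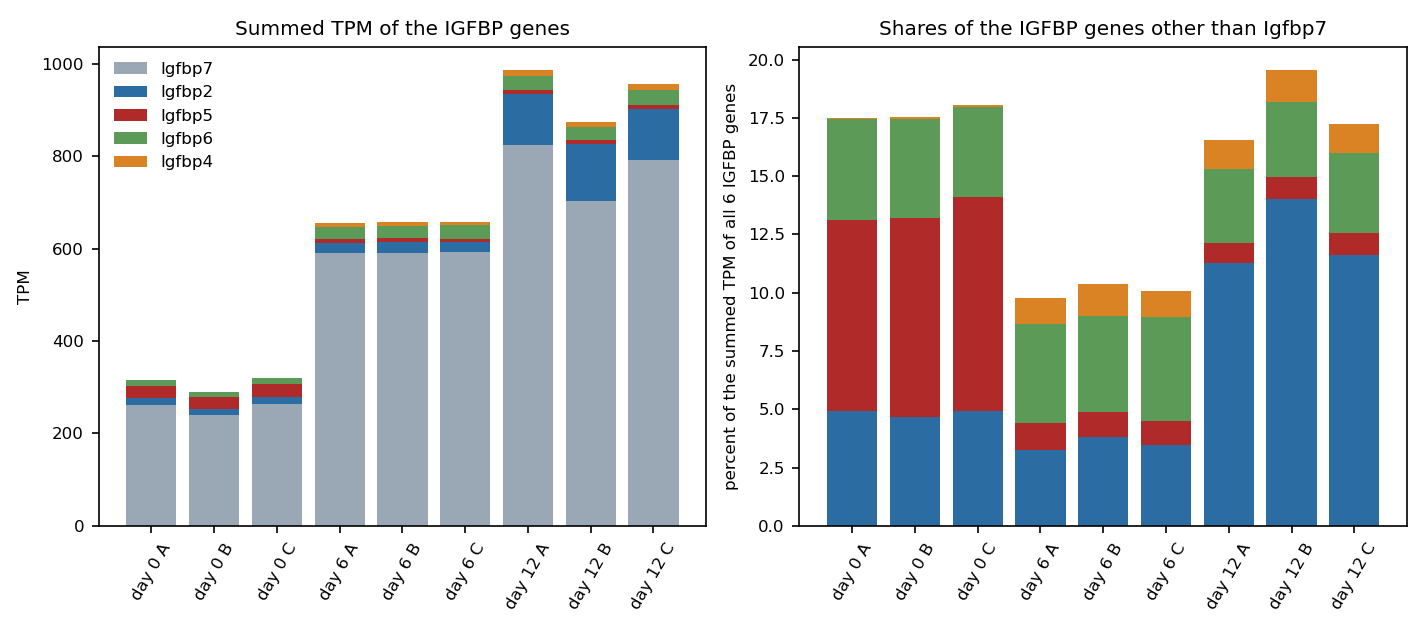
Stacked bars per library of the TPM of the binding protein genes (left, TPM) and of the share of their sum taken by each gene other than Igfbp7 (right, percent); Igfbp3 is too low to draw. The sum in TPM was higher at each later day, on a scale where the median of all genes was also above 0 at day 12 against day 6. The Igfbp5 share was largest at day 0 and the Igfbp2 share largest at day 12.

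Carrier genes are also made by stromal and endothelial cells, so markers of other cell types were read beside them. In bulk samples, fewer cells of a type and less RNA per cell cannot be told apart. The summed level of 7 stromal markers was 4.97 to 5.15 TPM at day 0, 1.94 to 2.22 TPM at day 6 and 7.16 to 8.22 TPM at day 12. Pdgfra, Lum, Col1a2 and Thy1 lay under 0.1 TPM at every day, and the others did not share 1 course. Dcn, most of the sum at day 0 and day 12, averaged 4.30, 0.40 and 5.26 TPM at the 3 days. Col1a1 averaged 0.71, 0.94 and 1.78 TPM, and Pdgfrb 0.02, 0.64 and 0.46 TPM. For 6 endothelial markers it was 0.95 to 1.29 TPM at day 0, 1.70 to 2.50 TPM at day 6 and 2.02 to 2.58 TPM at day 12, mostly Plvap, with Cdh5, Kdr, Emcn and Tek under 0.1 TPM. The 6 immune markers summed to 32.0 to 36.0 TPM at day 0, 24.2 to 27.3 TPM at day 6 and 28.8 to 32.1 TPM at day 12, with Cd3e and Itgam among those under 0.1 TPM. Most of this sum was Cd68, at means of 21.5, 21.9 and 22.5 TPM at the 3 days, and Csf1r, at 12.1, 3.85 and 7.41 TPM. Over all libraries, 6 distal tubule and collecting duct markers summed to 0.19 to 1.07 TPM, and 4 podocyte markers to 17.3 to 23.9 TPM, mostly Podxl. The part of these levels in the members' changes was not tested.

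The genes for IGFBP proteases and their inhibitors did not move in 1 direction. Of 8 listed, 5 passed the filter; 2 rose and 3 fell at day 6 against day 0, where 64.9% of all genes were called, and 2 rose, 1 fell and 2 were not called at day 12 against day 6, where 45.3% were. Pappa, the metalloprotease that cleaves IGFBP4, had 4.71, 5.03 and 3.99 CPM at day 0, 11.0, 8.58 and 10.5 CPM at day 6, and 6.91, 5.73 and 5.78 CPM at day 12, with no overlap between days. It rose at day 6 against day 0 (log2 fold change 1.13 ± 0.11, edgeR adjusted p = 2.29e-07) and fell at day 12 against day 6 (−0.70 ± 0.11, adjusted p = 7.88e-05). Stc2, which encodes an inhibitor of that protease, averaged 231 ± 3.4 CPM in day 0 cells, 11.0 ± 0.38 in day 6 cells and 156 ± 0.93 in day 12 cells. It fell at day 6 against day 0 (−4.39 ± 0.035, adjusted p = 3.88e-19) and rose at day 12 against day 6 (3.83 ± 0.035, adjusted p = 2.70e-18), the opposite directions to Pappa. Htra1, a serine protease, and Adam9, a membrane metalloprotease, were both lower at day 6 than at day 0 (−0.56 ± 0.037, adjusted p = 2.15e-09, and −0.53 ± 0.034, adjusted p = 1.99e-09). At day 12 Htra1 rose by 0.31 ± 0.037 against day 6 (adjusted p = 7.57e-06).

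Of 6 other ligand-binding and carrier genes, 3 passed the filter, of which 2 rose at day 6 against day 0, beside 33.5% of all genes. These were Igfals, whose product holds IGFs in the large serum complex (2.20 ± 0.62, adjusted p = 0.00558), and Kazald1, an IGFBP-related gene (0.84 ± 0.25, adjusted p = 0.00794), and both averaged under 1 CPM at every day. M6pr, the small mannose 6-phosphate receptor, had 180 ± 2.5 CPM at day 12, against 194 ± 4.2 CPM at day 0 (−0.11 ± 0.030, adjusted p = 0.00503), a direction that turns on log2(TPM + 1), at 0.15. Of 3 genes that make the mannose 6-phosphate tag, Nagpa rose at both steps (0.30 ± 0.042, adjusted p = 1.44e-05, and 0.29 ± 0.041, adjusted p = 4.08e-05), Gnptg was called at day 12 against day 6 (0.24 ± 0.040, adjusted p = 0.000207) but not at day 6 against day 0 (0.06 ± 0.041), and Gnptab at neither step (0.04 ± 0.039 and −0.06 ± 0.039).

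Downstream of the receptors, all 8 insulin receptor family and adaptor genes were called at day 6 against day 0, 5 higher and 3 lower, beside 64.9% of all genes. The lower ones, named after their values were seen, were Irs2 (−0.95 ± 0.058, adjusted p = 9.68e-10), Insr (−0.26 ± 0.051, adjusted p = 0.000374) and Insrr, which averaged under 1 CPM at every day. The adaptor genes Sh2b2 (1.20 ± 0.063, adjusted p = 1.67e-10), Grb14 (0.80 ± 0.056, adjusted p = 4.95e-09), Grb10 (0.77 ± 0.032, adjusted p = 9.45e-12) and Shc1 (0.67 ± 0.029, adjusted p = 1.96e-11) rose. GRB10 and GRB14 are known as inhibitors of insulin and IGF receptor kinases. At day 12 against day 6, 2 of the 8 rose, 3 fell and 3 were not called, where 45.3% of all genes were called. Grb14 rose further (0.39 ± 0.053, adjusted p = 2.72e-05), while Grb10 (−0.19 ± 0.032, adjusted p = 0.000168) and Shc1 (−0.19 ± 0.029, adjusted p = 0.000104) fell. Both falls turned sign on log2(TPM + 1), where 2 of the 8 were higher and 0 lower. On that scale 8876 of 16353 genes were called, 90.1% of them higher. Between day 12 and day 0 in the fit of counts, 4 of the 8 were higher and 3 lower, where 66.4% of all genes were called.

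Among 14 PI3K, AKT and FOXO genes, 11 rose and 1 fell at day 6 against day 0, where 33.5% of all genes were higher and 31.4% lower. On log2(TPM + 1), 9 rose and 1 fell, where 9238 of 16353 genes were called, 56.1% of them higher. At day 12 against day 6 in the fit of counts, 1 rose and 7 fell, beside 22.6% of all genes higher and 22.7% lower. That balance turned on log2(TPM + 1), where 8 of the 14 were higher and 4 lower. All genes leaned the same way on that scale: of 16353 tested, 8876 were called, 90.1% of them higher. Foxo1, a transcription factor that AKT keeps out of the nucleus, had 127 ± 4.8 CPM at day 6, against 59.4 ± 1.8 CPM at day 0 (1.10 ± 0.036, adjusted p = 6.60e-13). Foxo3 (0.56 ± 0.034, adjusted p = 9.79e-10) and Akt2, which encodes an AKT kinase (0.49 ± 0.031, adjusted p = 1.56e-09), rose by less. Of the 3 genes whose proteins bind Igf2 mRNA, Igf2bp3 had 28.9 ± 0.57 CPM at day 6, against 11.1 ± 0.71 CPM at day 0 (1.38 ± 0.056, adjusted p = 7.55e-12), and Igf2bp2 rose by 0.71 ± 0.031 (adjusted p = 2.01e-11), whereas Igf2bp1 was not called (0.06 ± 0.073).

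**Figure D5:**
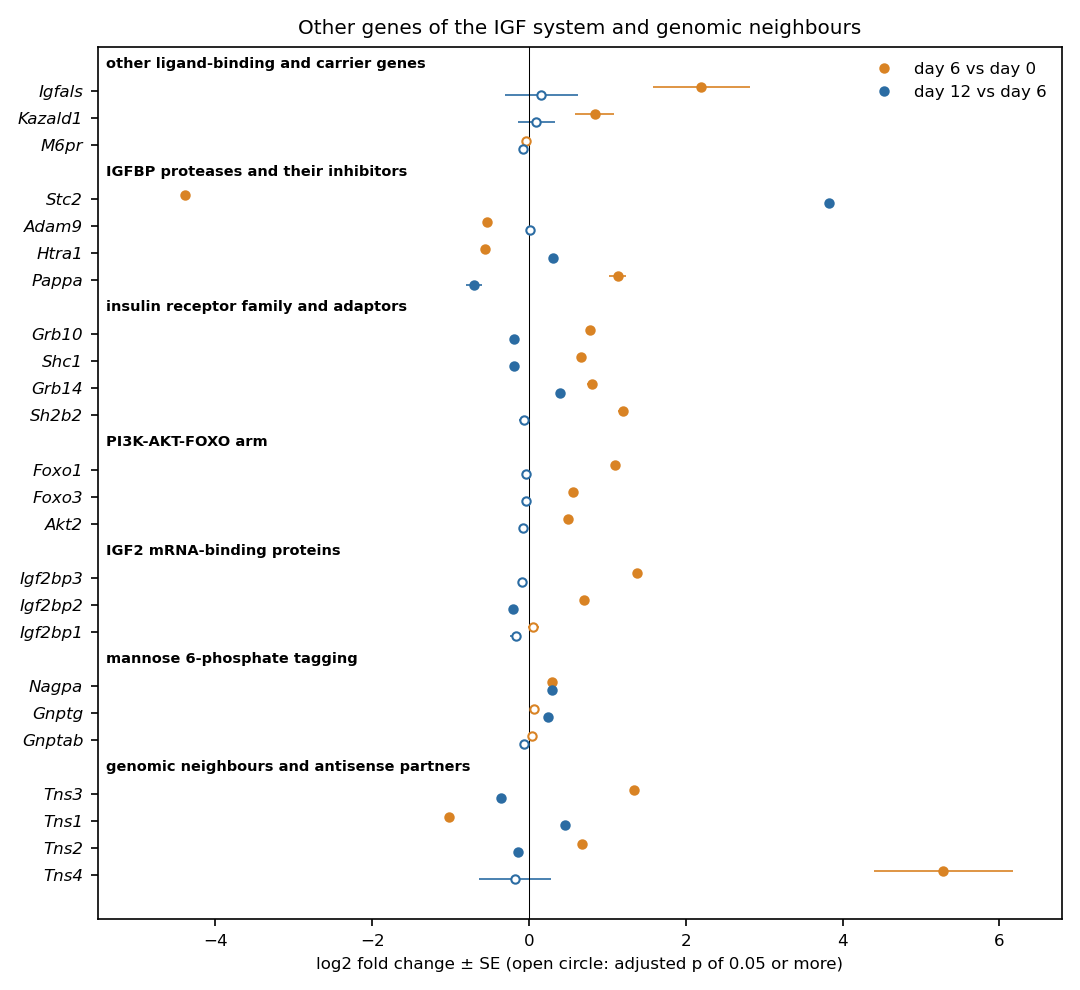
Log2 fold change ± SE (horizontal axis) of the named genes of the pathway and of genomic neighbours, for day 6 against day 0 (orange) and day 12 against day 6 (blue); open circles were not called, and the size of the Tns4 change at day 6 rests on 1 count at day 0. Stc2 stands apart at −4.39 and 3.83, and Pappa lies on the opposite side of 0 from it in both comparisons.

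Igfbp4 and Igfbp6 each lie near a gene of the tensins, which link integrins to actin. Tns4 lies 11286 bases beyond Igfbp4 and, like it, was nearly silent at day 0, with 0, 1 and 0 counts at day 0, 6, 26 and 18 at day 6, and 19, 18 and 10 at day 12. Top2a, a proliferation gene 17055 bases on the other side of Igfbp4, was named for its place only and was lower at day 6 (232 CPM, against 454 CPM at day 0; −0.97, adjusted p = 8.17e-13). Tns2, 27961 bases before Igfbp6, rose at day 6 against day 0 (0.67 ± 0.034, adjusted p = 9.54e-11). Genes nearer to Igfbp6 did not all rise. Soat2, 1015 bases after it, was under 1 CPM at every day and not called (0.34). Spryd3, 8128 bases before it, was lower (−0.10, adjusted p = 0.0394), and Csad, 27488 bases after it, was higher (0.19, adjusted p = 3.83e-05). Tns1, the tensin gene after Igfbp5, fell (−1.02 ± 0.047, adjusted p = 2.96e-11), as Igfbp5 did, but lies 1035347 bases away. Tns3, 1217729 bases from Igfbp3, rose by 1.34 ± 0.047 (adjusted p = 1.28e-12). Of the 10 neighbours and antisense partners listed, 5 passed the filter, of which 4 rose and 1 fell at day 6 against day 0. In that comparison 64.9% of all genes tested were called, 33.5% higher and 31.4% lower.

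For the 3 members with the widest range, the genes nearest in the plane of the fold changes of day 6 against day 0 and day 12 against day 6 were read from 10516 candidates over 9 libraries. Igfbp4 lay nearest to Masp1 (distance 0.53 log2 units), Ccdc3 (0.55) and Prrx2 (0.61). For Igfbp2 they were Myom2 (0.38), Lhx1 (0.58) and Smpd3 (0.75), and for Igf2 they were Fmo2 (0.11), Fos (0.42) and Ccn1 (0.52).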

How the data were processed

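RNA-seq was made from 9 libraries of polyadenylated RNA. The authors deposited whole-number counts per gene and TPM; the submitters' processing notes name STAR 2.7.8a, RSEM 1.3.3, cutadapt 2.3, FastQC 0.11.8 and the build GRCm38. Annotation release, strand setting and counting program: not given in the sources used here. Counts from RSEM would be estimated counts, rounded before deposit. Transgene entries (0.00204% to 0.00284% of counts) were left out.

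The counts were filtered by group with filterByExpr (minimum count 10), scaled by TMM and fitted once over the 9 libraries with edgeR 4.0.16 in R 4.3.3 (quasi-likelihood F test, 6 residual degrees of freedom), with Benjamini-Hochberg adjustment over the 16353 genes tested in each comparison. SEs are those implied by the F statistic. The deposited TPM served for levels between genes and, with limma 3.58.1, as an alternative; DESeq2 1.42.0 was another. One count was worth 0.0119 to 0.0172 TMM-normalised CPM; limits from counts cover counting error only. The scripts were tested on simulated data.

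The members, gene lists, markers and naming rule were chosen with earlier results of these data known. Named are all members, at most 4 genes of each pathway list with the smallest adjusted p in any comparison, the listed neighbours, and the 3 genes nearest in pattern to the 3 members of widest range. Top2a, Soat2, Spryd3 and Csad were named for their position after their values were seen. Sequences and starts come from RefSeq (GRCm38.p6, all 10 members matched), positions from GENCODE M21 on GRCm38. The labels do not say that a letter marks a shared culture, day or batch, so replicate letters were not used as pairs. Some genes that the rule or a marker list gave are left out of the text and figures. No library was left out, and no test compares the members as a group.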

Additional observations from a re-analysis of the deposited data

How the results depend on the processing

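In every alternative run, the number of genes called and the number of members called stayed within 1.5 times that of the counts fit. Leaving out each library in turn gave 10102 to 10740 genes called for day 6 against day 0, 6433 to 7475 for day 12 against day 6, and 10290 to 10927 for day 12 against day 0. Same-lettered libraries deviated from their group means with correlations from −0.083 to 0.078, and libraries of other letters with −0.110 to 0.095. With 3 libraries a group, these values cannot show whether libraries were paired. With the replicate block, 10485, 7221 and 10743 genes and 6, 6 and 7 members were called. Of the members' fold changes under the alternatives, 443 kept direction and call, where a change of sign between values that were not called in either fit counts as kept, 11 gained a call, 3 lost it and 2 turned. Those that turned are Igf2r at day 12 against day 0, at 0.220 on log2(TPM + 1) and 0.225 on log2(TPM + 0.1). Others that turned on these scales, where the median of all genes was itself above 0, were, for day 12 against day 6, M6pr (0.138 and 0.139), Grb10 (0.0214 and 0.0217), Shc1 (0.0322 and 0.0323), Foxo1 (0.168 and 0.175), Foxo3 (0.165 and 0.170) and Akt2 (0.114 and 0.115), and, for day 12 against day 0, M6pr (0.150 and 0.151) and Gnptab (0.247 and 0.265); the cause was not tested. The Igfbp4 log2 fold change of day 6 against day 0 ran from 2.89 on log2(TPM + 1), a scale that shrinks changes of low genes, to 6.57, and was called under all 17 alternatives. Depth limits Igfbp3 and the day 0 level of Igfbp4.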
